A study of Mus musculus with 6 samples.

Results

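The genes described here encode the translation initiation factors (eIFs), the elongation factors (eEFs) and the enzymes and binding proteins named after them. They were taken by name from the authors' deposited table of gene-level results as every symbol beginning with Eif or Eef and a digit, without Eif2ak3, the sensor kinase PERK of the endoplasmic reticulum. The rule used no measured value and found 61 of the 16472 genes in the table. All 61 had an adjusted p-value.

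The cells were HT22, an immortalised mouse hippocampal line used as a model of neurons, so that all libraries come from 1 line and none from tissue. A group of 3 libraries came from cultures treated with AA147, a compound known to activate ATF6, a regulator of the unfolded protein response, and NRF2, a regulator of the oxidative stress response, at a concentration that the labels give as 10 mM, a unit that was not checked and may be a misprint for a smaller one. The other 3 libraries came from cultures given DMSO as vehicle, and all 6 were collected after 16 h and sequenced as mRNA without strand information. The labels do not say whether the replicates were separate cultures, so the p-values measure the spread between these libraries only. The authors' deposited table gives 1 line per gene, so the value of a gene in each library, and the depth of each library, were not analysed here.

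Each line of the authors' deposited table holds a mean normalized count over the libraries, a log2 fold change with its standard error (SE) and an adjusted p-value. A gene is called when that adjusted p lies under 0.05. The table does not name the numerator of the fold change, and positive values are read as higher with AA147, so every direction below is conditional on that reading. Intervals are 95% normal intervals computed from the authors' log2 fold change and SE.

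Protein synthesis in the cytosol begins when eIF2 brings the initiator tRNA to the small ribosomal subunit, while the eIF4F complex on the mRNA cap and the scaffold eIF3 join that subunit to the message. The subunit then scans to a start codon, the large subunit joins, and the elongation factors eEF1 and eEF2 move the ribosome along the coding sequence. Stress kinases lower initiation by phosphorylating eIF2, which traps its exchange factor eIF2B, and mTOR signalling raises it by releasing the cap-binding protein eIF4E from its inhibitors.

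AA147 is known to engage ATF6 and NRF2, so the promoters of the members were searched for the binding letters of these and related factors. RefSeq windows on mouse assembly GRCm38.p6, from 250 bases before to 50 after an annotated start, were at hand for 49 of the 61 genes. Shown first are the 100 bases before the annotated start of the 2 called members with the smallest adjusted p, Eif4a2 on chr16:23107368-23107467 and Eef2k, at the first of its 3 annotated starts, on chr7:120842731-120842830, both on the + strand. Next come 60 bases around the antioxidant response element (ARE) core TGACNNNGC, the letters bound by NRF2, in the 2 called members that held it, Eef1b2 on chr1:63176632-63176691 and Eif1 on chr11:100319821-100319880, both on the + strand, with the match in capitals. The match of Eef1b2 is read on the opposite strand. In Eif3a, on the - strand of chr19:60790757-60790816, the ARE match in capitals overlaps the only match to the ATF6 letters TGACGTGG, both read on the opposite strand. The last line is Eef2, on the + strand of chr10:81176619-81176648, with its cAMP response element TGACGTCA in capitals. That match lies after the annotated start.
Eif4a2: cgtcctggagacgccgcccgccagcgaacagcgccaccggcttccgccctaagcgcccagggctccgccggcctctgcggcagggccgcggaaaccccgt
Eef2k: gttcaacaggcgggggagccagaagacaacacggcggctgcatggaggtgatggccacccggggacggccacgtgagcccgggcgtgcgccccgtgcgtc
Eef1b2: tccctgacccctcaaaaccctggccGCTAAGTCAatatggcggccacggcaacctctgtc
Eif1: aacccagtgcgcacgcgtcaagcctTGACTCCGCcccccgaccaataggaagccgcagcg
Eif3a: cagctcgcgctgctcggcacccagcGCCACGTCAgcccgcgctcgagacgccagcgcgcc
Eef2: aaaaggccgggcgtTGACGTCAgcggtctc

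On either strand, the ARE core lay in the windows of 10 of the 49 members (20.4%). The share was 14% over all 27025 genes with a window, which were not limited to the genes tested here. Of the 8 called members with a window, 2 held the ARE core, Eef1b2 at 174 and Eif1 at 103 bases before the start. The ATF6 letters were found in 1 member (2.04%) against 0.714% of all genes, and the cAMP response element in 1 (2.04%) against 2.03%. No member window held the endoplasmic reticulum stress element bound by ATF6 with NF-Y, which 0.137% of all genes held, or the amino acid response letters TGATGNAAT bound by ATF4, which 1.08% held. These are matches of letters in a window, and neither a match nor its absence shows what binds there.

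Most members had values close to 0. Of the 61 members, 3 were called positive and 7 negative in the authors' deposited table, which is 16.4% of them. Over all 13597 genes tested there, 20.2% were called, 9.05% positive and 11.1% negative, so the members' share lies near the background and is no result about the family. The members' median log2 fold change was -0.0041, beside 0.0092 over all genes tested, and 55 of the 61 lay within 0.3 of 0 in the authors' deposited table, beside 74.1% of all genes tested. The members were more abundant, with a median mean of 4504 normalized counts beside 740 over all genes tested. The shares within 0.3 of 0 are therefore not matched for abundance. The split of 3 positive to 7 negative calls was not stable, since it became 1 to 9 when the fold changes were centred on the median of genes with a mean of at least 100, a shift of 0.013, and 5 to 6 when a trend on transcript length, GC content and expression was subtracted.

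**Figure D1:**
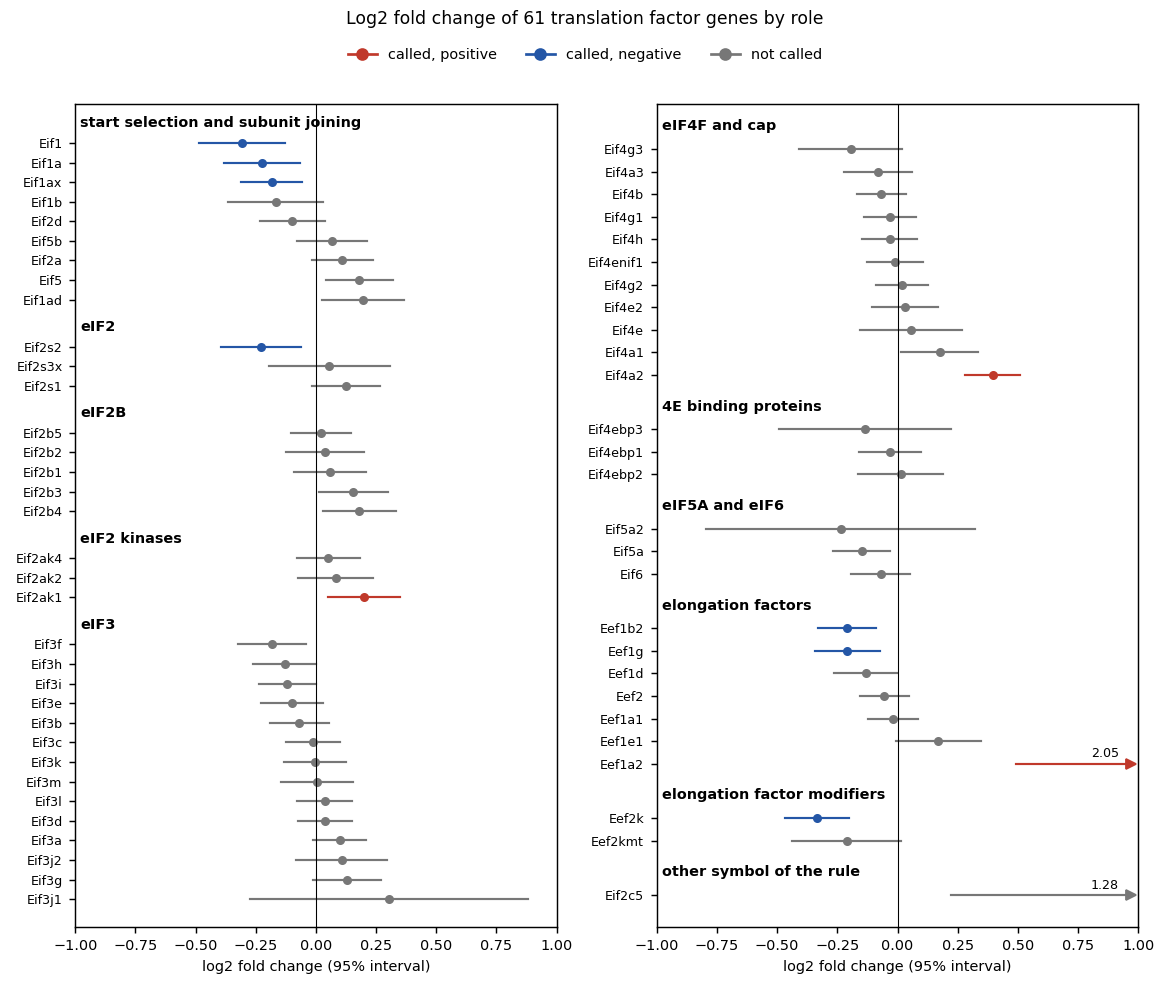
Log2 fold change of each of the 61 members (points) with its 95% interval (bars), grouped by role, with called positive members in red, called negative members in blue and the rest in grey. Most points lie within 0.3 of 0, and the arrows mark Eef1a2 at 2.05 and Eif2c5 at 1.28, which lie beyond the axis.

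Judged by the authors' SE alone, the data bound the change for most members. That bound does not cover reads of close copies or the choice of processing. For example, Eef1a1 at 0.16 with the trend subtracted lies beyond its interval of -0.12 to 0.08. The 95% interval lay wholly within 0.3 of 0 on the log2 scale, a range from -18.8% to 23.1%, for 37 of the 61 members, all of them uncalled, beside 32.2% of all genes tested. Among the 50 members with a mean of at least 1000 normalized counts, 36 (72%) had such an interval and 9 (18%) were called in the authors' deposited table. Of the 5895 genes with a mean that high, 58.9% had such an interval and 28.4% were called. The interval of the other 14 uncalled members reached beyond 0.3 on at least 1 side, so these data do not bound their change to that range.

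Of the 9 genes of start codon selection, 3 were called negative and none positive, where 11.1% of all genes tested were called negative, and no test was made of this small group. Eif1, which keeps the scanning ribosome from stopping at a wrong start codon, was called at -0.31 (SE 0.091, adjusted p 0.0066) with a mean of 2970 in the authors' deposited table. Taken at face value, this equals averages of 2656 normalized counts with AA147 and 3284 with vehicle. The 2 genes for its partner eIF1A, which promotes scanning, were also called, Eif1a at -0.22 (SE 0.080, adjusted p 0.0303) and Eif1ax at -0.18 (SE 0.065, adjusted p 0.0273, from the authors' deposited table). Their means were 1543 and 5105 normalized counts. Eif1b, the close relative of Eif1, lay at -0.17 with a larger SE of 0.10 and missed the limit (adjusted p 0.253).

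The remaining genes of this step were not called in the authors' deposited table, and 4 of them had positive values. Eif5, which triggers GTP hydrolysis by eIF2 once a start codon is found, lay at 0.18 (SE 0.071, adjusted p 0.0556) with a mean of 5391. Eif1ad, which encodes a protein with an eIF1A-like domain, lay at 0.20 (adjusted p 0.0960). Eif5b, the GTPase that joins the large subunit, was at 0.07, and the alternative initiator tRNA factors Eif2a and Eif2d were at 0.11 and -0.10 in the authors' deposited table. Part of the transcript of Eif1, 37.3% of its exonic bases, is overlapped by other genes on the opposite strand, and 2 close copies of it lie elsewhere in the genome. Its reads and theirs may not have been told apart, and this was not tested.

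eIF2 carries the initiator tRNA and is the target of the stress kinases. Its beta subunit gene Eif2s2 was called at -0.23 (SE 0.085, adjusted p 0.0387, from the authors' deposited table), with a mean of 1940. The gene of the phosphorylated alpha subunit, Eif2s1, lay at 0.12 (SE 0.071, adjusted p 0.227) and the gamma subunit gene Eif2s3x at 0.06 (SE 0.13) in the same table, neither called. A single copy 99.2% identical to 55.6% of the Eif2s2 transcript, and one 99.9% identical to 96% of the Eif2s3x transcript, lie elsewhere in the genome, so single values of these 2 genes are uncertain.

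All 5 subunits of eIF2B, which reloads eIF2 with GTP, had positive values and none was called in the authors' deposited table. The lowest was the catalytic epsilon subunit Eif2b5 at 0.02 (SE 0.063), followed by the beta and alpha subunits Eif2b2 and Eif2b1 at 0.04 and 0.06. The gamma and delta subunits Eif2b3 and Eif2b4 were highest at 0.16 and 0.18, with adjusted p-values of 0.121 and 0.0786, and Eif2b4 was called positive only with the trend subtracted. For 4 of the 5, all but Eif2b4, the interval lay within 0.3 of 0.

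Of the 3 eIF2 kinases measured here, the heme-regulated kinase gene Eif2ak1 was called positive at 0.20 (SE 0.076, adjusted p 0.0435, from the authors' deposited table), with a mean of 1902. This call was lost with centring (adjusted p 0.0644), with the trend subtracted (adjusted p 0.0727) and when the Benjamini-Hochberg adjustment was made over every gene with a p-value. Exons of Aimp2 and Ankrd61 overlap 36.4% of its transcript on the opposite strand, and the authors' deposited table gives -0.02 for Aimp2, whose mean is 2770, and -0.67 for Ankrd61, whose mean is 9.18. The double-stranded RNA sensor Eif2ak2 and the amino acid sensor Eif2ak4 lay at 0.08 and 0.05, and neither was called.

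None of the 14 genes of the scaffold eIF3 was called in the authors' deposited table, whose values for them ran from -0.18 to 0.31 around a median of 0.00017. The subunits with the smallest changes were Eif3k and Eif3m, at -0.0041 and 0.0044, and the interval lay within 0.3 of 0 for 12 of the 14. Eif3f at -0.18 (SE 0.072, adjusted p 0.0533) lay just outside the limit and was called only with centring. Eif3h, Eif3i and Eif3e were at -0.13, -0.12 and -0.10 in the authors' deposited table, while Eif3a, the largest subunit, lay at 0.10 and Eif3g at 0.13, the latter called positive only with the trend subtracted. The highest value, 0.31 for Eif3j1, rested on a mean of 67.1 and an SE of 0.29. Its near-identical partner Eif3j2 had a mean of 1680 and a value of 0.11, and 99.5% identity over 95.6% of the Eif3j1 transcript leaves the division of reads between this pair uncertain.

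The clearest change among the members was in the helicase of the cap-binding complex eIF4F, which unwinds the leader of the mRNA. Eif4a2, one of the 2 genes for this helicase, was called positive at 0.39 (SE 0.057, adjusted p 2.45e-10) with a mean of 5948 in the authors' deposited table. At face value this is 31.5% higher with AA147, with an interval from 21.6% to 42.1%, or averages of 6757 and 5140 normalized counts. It was called under every alternative run for the count of calls. The search used found no close copy of Eif4a2 elsewhere in the genome, but could miss copies split by introns. Other genes overlap 25.3% of its exonic bases on the opposite strand, among them Rfc4, which had a mean of 1413 and a value of 0.21 (adjusted p 0.0792, from the authors' deposited table). The part of Rfc4 reads in the value of Eif4a2 was not tested.

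Its paralog Eif4a1 lay at 0.18 (SE 0.082, adjusted p 0.116) and Eif4a3, the helicase of the exon junction complex, at -0.08 (SE 0.072) in the authors' deposited table. Neither was called, and each had 3 close copies elsewhere in the genome. The cap-binding protein gene Eif4e was at 0.06 with a mean of 722 and an SE of 0.11, and its relative Eif4e2, which competes for the cap, at 0.03. The scaffolds Eif4g1 and Eif4g2 had means of 38143 and 49303 and values of -0.03 and 0.02, and the scarcer Eif4g3 lay at -0.20 (SE 0.11, adjusted p 0.212, from the authors' deposited table). The helicase cofactors Eif4b and Eif4h were at -0.07 and -0.03 and the eIF4E transporter Eif4enif1 at -0.01. Among these 11 genes, Eif4a2 was thus the single call.

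The inhibitors of eIF4E showed no call. Eif4ebp1, a known target of ATF4 and of mTOR signalling, had a mean of 5193 and a value of -0.03 (SE 0.066) in the authors' deposited table, and its interval ran from -0.16 to 0.10. Eif4ebp2 lay at 0.01 and Eif4ebp3 at -0.14 with an SE of 0.18. The transcript of Eif4ebp3 shares 66.1% of its exonic bases with Maskbp3 on the same strand, so its value cannot be assigned to it alone.

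Eif5a, the hypusine-bearing factor that helps ribosomes through difficult peptide bonds, lay at -0.15 (SE 0.061, adjusted p 0.0650) with a mean of 16011 in the authors' deposited table. It was called only with centring, at -0.16 (adjusted p 0.0405), and 3 close copies of it lie elsewhere in the genome. Its scarcer paralog Eif5a2 lay at -0.24 with an SE of 0.29 at a mean of 69.9. Eif6, which keeps the ribosomal subunits apart, was at -0.07.

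**Figure D2:**
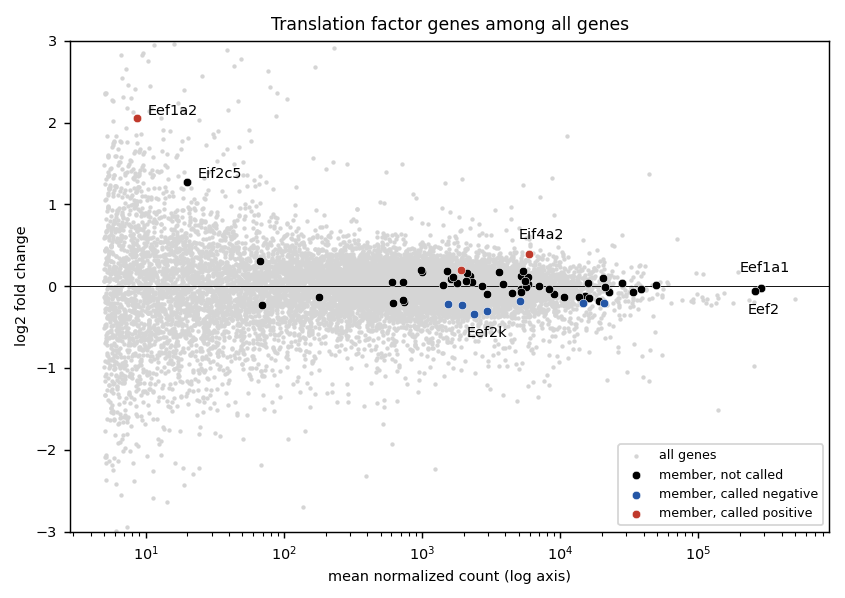
Log2 fold change against mean normalized count (log axis) for all genes with a mean of at least 5 (grey) and for the 61 members (black, or blue and red where called). The vertical axis ends at 3 on either side, the most abundant members Eef1a1 and Eef2 lie close to 0, and Eif4a2 at 0.39 stands above the members of similar mean.

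The elongation factors held the most abundant members. Eef1a1, which delivers aminoacyl-tRNA to the ribosome, had a mean of 284620 normalized counts, and Eef2, which moves the ribosome by a codon, one of 256725 in the authors' deposited table. Together these 2 genes made up 53.6% of the summed means of the 61 members. Their values were -0.02 (SE 0.053, adjusted p 0.853) and -0.05 (SE 0.052, adjusted p 0.529), and neither was called. The intervals ran from -0.12 to 0.08 for Eef1a1, which has 11 close copies elsewhere in the genome, and from -0.16 to 0.05 for Eef2. With the trend subtracted both were called positive, Eef1a1 at 0.16. Both genes were among those used to fit the trend, and the cause of the difference was not tested.

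The exchange factor eEF1B, which reloads eEF1A with GTP, had 2 of its 3 subunit genes called negative in the authors' deposited table. Of all genes tested 11.1% were called negative, and no test was made of these 3 genes. Eef1b2 lay at -0.21 (SE 0.061, adjusted p 0.0050) with a mean of 20830, or averages of 19309 with AA147 and 22352 with vehicle. Eef1g lay at -0.21 (SE 0.069, adjusted p 0.0169) with a mean of 14504, lost its call with the trend subtracted (adjusted p 0.117), and has 4 close copies, the nearest of them 99.6% identical. Eef1d, the remaining subunit, was at -0.13 (SE 0.066, adjusted p 0.153) and was not called. Eef1e1, whose product belongs to the complex of tRNA synthetases despite its name, was at 0.17 (adjusted p 0.185, from the authors' deposited table).

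Eef1a2, the form of eEF1A known from neurons and muscle, was called positive at 2.05 (SE 0.80, adjusted p 0.0495, from the authors' deposited table). Its mean was 8.58 normalized counts, and the value equals averages of 13.8 with AA147 and 3.34 with vehicle. The interval ran from 0.49 to 3.61, and the call was lost with centring (adjusted p 0.0519) and with the adjustment over every gene with a p-value. Other markers of neurons were scarce here, since 3 of the 13 chosen had a line in the authors' deposited table, Tubb3 with a mean of 1199, Eno2 with 62.1 and Slc17a7 with 3.93. Tubb3 was called positive at 0.43 (adjusted p 5.67e-05), and Eno2, at -0.30, was not called. All 6 fibroblast markers had one, and Col1a2 reached a mean of 254004 with a log2 fold change of -0.97 (adjusted p 2.39e-73). Col1a1 at -1.52, Col3a1 at -1.11 and Pdgfrb at -0.97 were also called negative, while Thy1 at -0.03 and Acta2 at 0.01 were not called. Markers of astrocytes, microglia and oligodendrocytes summed to means of 955, 1.71 and 30.8, most of the first from Slc1a3 at -1.30. The part of these marker changes in the members' values was not tested.

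Eef2k, the kinase that inactivates eEF2 by phosphorylation, had the second smallest adjusted p of the members. It was called negative at -0.33 (SE 0.067, adjusted p 1.42e-05) with a mean of 2377 in the authors' deposited table. At face value it fell by 20.7%, with an interval from -27.6% to -13.1%, or averages of 2103 with AA147 and 2651 with vehicle. The search for close copies, which could miss those split by introns, found none for Eef2k. It was called under every alternative that kept it among the genes counted, which the restriction to core factors did not. Eef2kmt, which methylates eEF2, lay at -0.21 (SE 0.12) and missed the limit at an adjusted p of 0.203. Other genes overlap 54.7% of its exonic bases on the opposite strand, among them Alg1, with a mean of 1016 and a value of -0.07. The part of their reads in the value of Eef2kmt was not tested. The enzymes that methylate eEF1A appeared under older symbols outside the rule, N6amt2 at -0.11, Mettl10 at 0.21, Mettl21b at -0.21 and Mettl13 at -0.11 in the authors' deposited table, and none was called.

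Eif2c5 met the naming rule, although RefSeq gives it the synonym Ago5 and symbols of this form were once used for Argonaute proteins. Its mean was 19.8 and its value 1.28 (SE 0.54, adjusted p 0.0772, from the authors' deposited table), and it was not called.

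Levels between genes were set side by side per kilobase of the canonical GENCODE transcript, which may differ from the models the authors counted on. Eef1a1 stood highest at 158651 normalized counts per kilobase, followed by Eef2 at 83110 and then by the eIF3 subunits Eif3l and Eif3i at 14229 and 13305. Apart from Eif3m, Eif3j1 and Eif3j2, the eIF3 subunits lay between 3936 for Eif3a and 14229 for Eif3l. eIF2B subunits ran from 709 for Eif2b3 to 2291 for Eif2b5, and the 3 kinases from 374 to 438. Within the cap-binding group, Eif4e at 144 per kilobase stood below its inhibitor Eif4ebp1 at 2591 and the scaffold Eif4g1 at 5951. Eif4a2 at 2425 and Eif4a1 at 2036 were of similar level, with the count of Eif4a1 uncertain because of its copies, the nearest 99.2% identical.

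**Figure D3:**
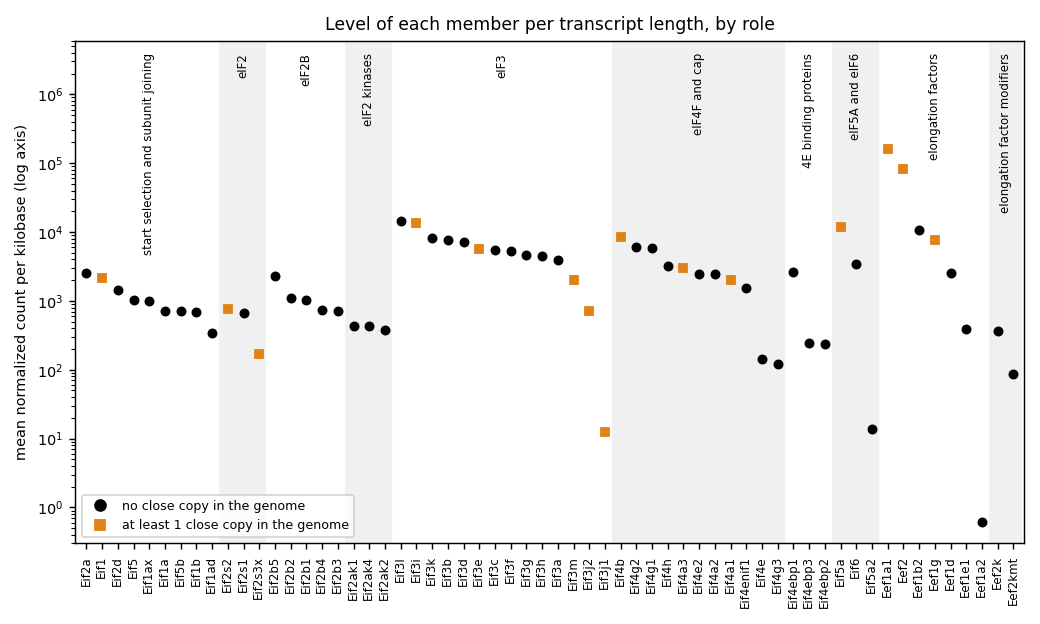
Mean normalized count per kilobase of transcript (log axis) for the 60 members with a gene model, ordered by level within each role, with orange squares for genes that have at least 1 close copy elsewhere in the genome. Eef1a1 and Eef2 stand highest, and Eef1a2, Eif3j1 and Eif5a2 lowest.

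Beyond the members, 51 genes that act with these factors were listed by role, and all had a line in the authors' deposited table, Gcn1 and Pym1 under older symbols. Calls were made for 3 positive and 4 negative genes of this list (13.7%), whose median was 0.04, so its share lies below the 20.2% of all genes tested that were called and is no result about the list. Among the initiation partners, the poly(A)-binding protein genes Pabpc1 at -0.18 (adjusted p 0.0099) and Pabpc4 at -0.20 (adjusted p 0.0148) were called negative, and Mknk2, a kinase of eIF4E, at 0.22 (adjusted p 0.0092) and Mcts2 at 0.27 (adjusted p 0.0456) positive in the authors' deposited table. Hbs1l, which rescues stalled ribosomes, was called at -0.21, Dnajc3, an inhibitor of eIF2 kinases in the endoplasmic reticulum, at -0.21, and the mitochondrial elongation factor Gfm1 at 0.19. None of the 11 genes of mTOR signalling to translation was called, with values from -0.17 for Ddit4 to 0.24 for Tsc1. The hypusine enzymes Dhps and Dohh lay at 0.05 and 0.16, also uncalled in the authors' deposited table.

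The other parts of the translation apparatus gave different counts in the same table, set side by side here without a test. The 84 cytosolic ribosomal protein genes had a median of -0.15, with 26 called negative and 0 positive in the authors' deposited table. The 37 tRNA synthetase genes, cytosolic and mitochondrial, had a median of -0.12, with 14 negative and 2 positive calls. Shares of 31% and 43.2% of these 2 lists were called. Of all genes tested, 20.2% were called in either direction and 11.1% were called negative. Both lists are abundant, with median means of 3352 and 3374 normalized counts, beside 740 over all genes tested. Among the 5895 abundant genes, those averaging 1000 or more normalized counts, the called share was 28.4%. The 31% of the ribosomal list lies near that share, and the 43.2% of the synthetase list lies above it. That share counts calls in both directions and was not split by sign, whereas all 26 calls of the ribosomal list were negative. It therefore does not match the direction of the ribosomal calls. Against the median log2 fold changes of -0.15 and -0.12 stands the -0.0041 of the 61 factors, all from values as deposited. With the trend subtracted the median of the factors was 0.02, and that setting was not applied to the other lists. All 3 lists come from the same libraries, and many ribosomal protein genes have copies in the genome.

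**Figure D4:**
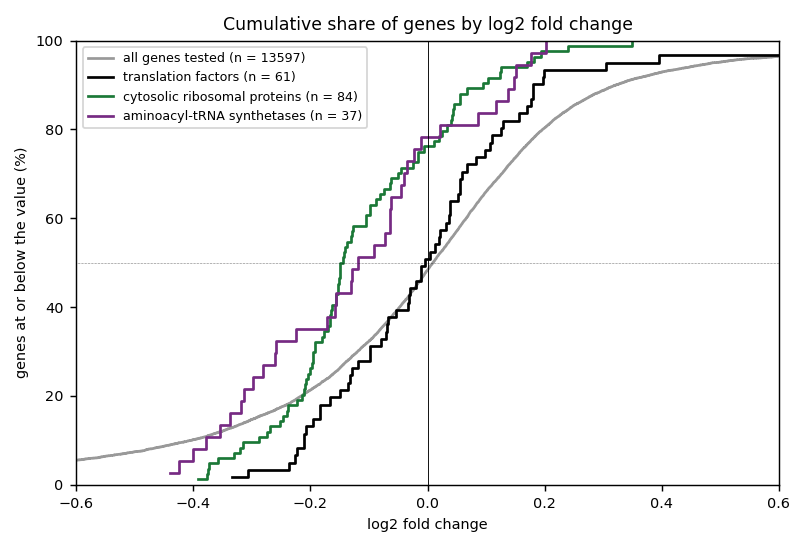
Cumulative share of genes (vertical axis, %) at or below each log2 fold change for all 13597 genes tested, the 61 translation factors, the 84 ribosomal protein genes and the 37 tRNA synthetase genes. The curve of the translation factors crosses 50% near 0, and those of the other 2 lists cross it at -0.15 and -0.12; values beyond 0.6 on either side lie outside the axis.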

How the data were processed

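The 6 libraries, 3 per group, were compared by the authors, and no fit between libraries was made here. The submitters' processing notes name DESeq2 and mm9 without role or version; aligner, counter, annotation and model are not given in the sources used here. Per the file headers, the values the authors deposited are a mean normalized count per gene, a signal averaged over libraries, a log2 fold change, 2 scores (its standard error and the test statistic, their ratio within 3.06e-07) and p-values with adjusted p-values. Recomputing Benjamini-Hochberg values over the 13597 genes with an adjusted p gave the deposited ones within 7.58e-07. The other 2875 genes (17.5%) had none and a mean of at most 8.41. The depth of each library is unknown.

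Members, role groups and lists were chosen with earlier results of these data known. Members past the limit and the most abundant of each role group were described in full, the others by value or range. Transcript lengths, GC content and exon overlaps came from canonical GENCODE M39 transcripts (GRCm39), matched by symbol for 13502 genes and 60 members, with no coordinates taken from them. Close copies, at least 90% identical over at least 50% of a transcript, were found with minimap2 2.31 for 15 members. Transcripts were aligned to the genome without splicing and each alignment was judged alone, so copies split by introns could be missed. No member's SE exceeded 1.31 times the median of the 200 genes nearest in mean. The trend subtracted in 1 alternative was fitted by Huber regression, with squared terms, to 9620 genes that had a gene model and at least 100 mean normalized counts. In simulated fold changes with the authors' SEs over 13597 genes, 200 genes were changed, by 0.3 or -1. Of those with means of at least 1000, 63% of 46 changed by 0.3 and 100% of 45 changed by -1 were called. Unchanged genes made up 6.67% of the 120 calls. The data held 2741 calls, so the adjustment differs there and these shares do not measure the sensitivity of the deposited calls. Python 3.11.15, pandas 2.3.3, SciPy 1.17.1, statsmodels 0.14.6 and matplotlib 3.10.9 were used.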

Additional observations from a re-analysis of the deposited data

How the results depend on the processing

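No paired analysis was possible because the comparison was deposited as 1 line per gene, without values of each library, and no library could be left out. The count of 10 called members ranged from 7 to 11 under 6 alternatives, among them members without close copies (7 of 45) and core factors alone (8 of 50), which were chosen after the data were seen, the adjustment over every gene with a p-value (8), centring (10) and trend subtraction (11 of 57). The share of members called was 13.1% with that adjustment, beside 16% of all genes. It was 16.4% beside 19.9% with centring, 19.3% beside 23.5% with the trend subtracted, and 15.8% beside 23.8% with a mean of at least 100. Stricter limits lowered the count of called members by construction. It was 4 at an adjusted p under 0.01 (Eef1b2, Eef2k, Eif1 and Eif4a2), 4 when the log2 fold change also had to reach 0.3 in size (Eef1a2, Eef2k, Eif1 and Eif4a2), 2 with a Bonferroni adjustment and 2 against a null interval of 0.1, both times Eef2k and Eif4a2. The count of 2741 over all genes was 1818, 1733, 774 and 1202 under the same 4 settings. The members' median ran from -0.02 to 0.02, and their mean was 0.04. Of the named members, Eef1a1 reversed from -0.02 to 0.16 with the trend subtracted, and the cause was not tested. A mean of at least 100 would remove 4 members, Eef1a2 among them.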
